A study of Macaca mulatta with 24 samples.

Results

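Some transcripts were held in common by the fetal lung and the fetal liver and were far lower in the fetal hippocampus. These transcripts were chosen by level. Counts were scaled to the library's total as counts per 1000000 (CPM), the 8 libraries of each tissue were averaged, and a transcript was kept if the lung and liver means were both at least 5 CPM, differed by no more than 4-fold, and were both at least 10 times the hippocampus mean. Of 45579 transcripts listed, 11942 reached 5 CPM in both tissues, 10231 of these were within 4-fold, and 240, or 2.35% of the 10231, also exceeded the hippocampus mean 10-fold. The 200 with the highest smaller mean are described here. 1 transcript, ENSMMUT00000054851.1, was set aside by name and did not meet the limits. With the limits mirrored, 521 transcripts were shared by lung and hippocampus over liver, and 51 by liver and hippocampus over lung.

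Each of 8 Rhesus macaque fetuses gave 1 library of its lung, 1 of its liver and 1 of its hippocampus, 24 in all. The mothers of 4 fetuses received the clinical treatment, which was betamethasone phosphate plus betamethasone acetate by intramuscular injection, at 0.25 mg/kg in each of 2 doses 24 hr apart. The mothers of the other 4 received oral Beta-P, which is betamethasone phosphate by mouth, in 3 doses of 0.15 mg/kg at a 12 hr interval. Delivery was at 5 days, at a gestational age of 132 to 133 days with the clinical treatment and 127 to 132 days with oral Beta-P. Betamethasone is a synthetic glucocorticoid given before preterm birth to mature the fetal lung. Every fetus had been exposed to it, and no untreated fetus was analysed here, so the treatments were compared only with each other. The fetuses are called clinical 1 to 4 and oral 1 to 4, and lists of 4 values below follow that order.

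The depth per library was 21088272 to 28641485 counts for lung, 25803825 to 32122919 for liver and 22537044 to 35254898 for hippocampus. The lung libraries of clinical 1 and 2 were sequenced in another run than the other 6. The liver library of oral 3 was sequenced in another run than the other 7. In the hippocampus, clinical 1 to 3 shared 1 run and clinical 4 and the 4 oral animals another, so that run and treatment were nearly the same split. The tables list transcript identifiers, which were not paired with gene names here. Every member is therefore named by its identifier, its function is not stated, and the labelled tissues were not checked against marker genes.

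Lung and liver both hold epithelium laid on a dense bed of blood vessels, and both are populated early by macrophages. The fetal liver is also the main site of blood formation before the bone marrow takes over, and blood cells reach every perfused organ. The hippocampus is neural tissue, made mostly of neurons and glia, with vessels that form the blood-brain barrier. In whole tissue, fewer cells of a type and less RNA per cell cannot be told apart. CPM values are not corrected for transcript length, so a higher CPM in 1 transcript than in another is not a higher number of molecules.

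Because the tissue means chose the members, their levels in the 3 tissues are a description, with no test. The members' mean lung levels ran from 8.45 to 2014 CPM (median 29.3). Their liver means ran from 8.21 to 7916 CPM (median 26.7), and hippocampus means from 0 to 108 CPM (median 0.808). Most members sat low in this range. The smaller of the lung and liver means was below 20 CPM in 100 members, and only 29 reached 100 CPM in both tissues. Lung was the higher tissue in 102 members and liver in 98. The means were within 2-fold of each other in 133 members, while 32 were more than 2-fold higher in the lung and 35 more than 2-fold higher in the liver. In the hippocampus, 11 members had no count in any of the 8 libraries, which allows up to 3 counts in each, and 16 had at most 3 counts in every library. The other end was close to the limit. The smaller mean was less than 20 times the hippocampus mean in 76 members, and the hippocampus mean was at least 1 CPM in 90. In 32 members the smaller mean was over 100 times the hippocampus mean or the hippocampus mean was 0.

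**Figure D1:**
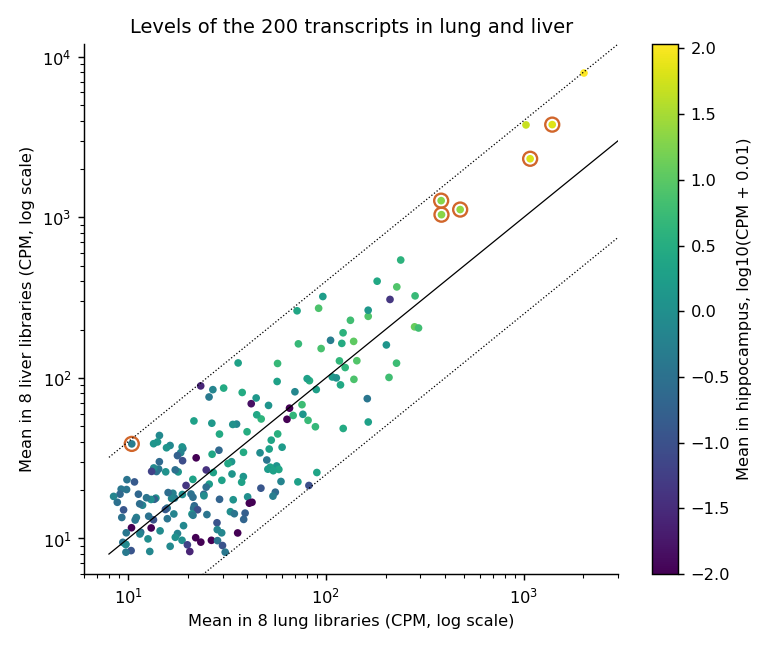
Mean level in 8 liver libraries (CPM, log scale) against mean level in 8 lung libraries (CPM, log scale), 1 point per transcript, for the 200 transcripts. 102 points have the higher mean in the lung and 98 in the liver, and the limit of 4-fold bounds the cloud.

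The members nearest to each limit differed little from those just beyond it. The last member by rank was ENSMMUT00000001158.3, with a lung mean of 9.75 CPM, a liver mean of 8.21 CPM and a hippocampus mean of 0.418 CPM, and the first transcript not taken was ENSMMUT00000000459.3, with 8.18, 10.8 and 0 CPM. At the 4-fold limit, ENSMMUT00000004586.3 was inside with a 3.93-fold higher mean in the liver. ENSMMUT00000038845.2 was outside at 4.03-fold, with a lung mean of 1578 CPM, a liver mean of 6358 CPM and a hippocampus mean of 71.4 CPM. At the hippocampus limit, ENSMMUT00000038887.2 was inside, with its lung mean of 21.2 CPM at 10.1 times the hippocampus mean of 2.11 CPM. ENSMMUT00000075872.1 was outside at 9.86 times, with 30.3 CPM in the lung and 3.07 in the hippocampus.

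Not all members were separate measurements, and distinct values do not make members independent of each other. ENSMMUT00000014851.3 and ENSMMUT00000040917.2 had identical values in all 24 libraries, so the 200 members hold 199 distinct profiles. Among the listed transcripts with counts, 1269 had values identical to another transcript. The liver table holds estimated counts, and 30 members (15%) had whole liver values in all 8 libraries, against 14.7% of the 11942 transcripts at 5 CPM in lung and liver. For the other members some reads may have been split between transcripts, and how was not stated in the sources used here.

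The tissue means did not describe every fetus equally well. When the same limits were applied to the 3 libraries of each fetus alone, 87 members met them in all 8 fetuses, 36 in 7, 25 in 6, 27 in 5, 15 in 4, 7 in 3 and 3 in 2. No member met them in fewer. The 7 members highest by rank were not among the 87. The first of them, ENSMMUT00000004586.3, met the limits in 3 fetuses, and ranks 2 to 7 met them in 5 each. The number of members that met the limits was 174, 175, 154 and 175 in clinical 1 to 4 and 161, 175, 152 and 154 in oral 1 to 4. Over the 1600 pairs of member and fetus, 280 fell outside a limit. The hippocampus limit was missed in 189 of these pairs, the 4-fold limit in 97 and the 5 CPM limit in 26, and a pair could miss more than 1. The order of lung and liver was also not fixed. The lung was higher in all 8 fetuses for 46 members, the liver was higher in all 8 for 43, and the order differed between fetuses for 111.

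**Figure D2:**
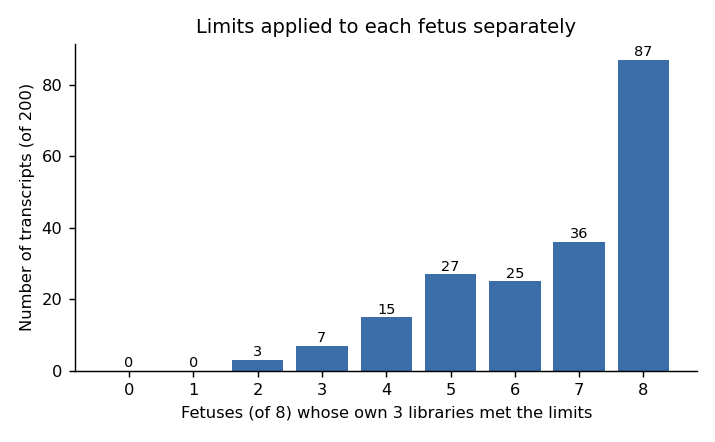
Number of the 200 transcripts (vertical axis) by the number of fetuses, of 8, whose own lung, liver and hippocampus libraries met the limits (horizontal axis). The tallest bar is 87 transcripts at 8 fetuses, and the lowest bar above 0 is 3 transcripts at 2 fetuses.

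When the limits were applied to the means of 1 treatment at a time, 266 transcripts met them in the clinical fetuses and 229 in the oral fetuses. The 194 that met them in both were 72.9% of the first set and 84.7% of the second. Of the 200 members, 169 met the limits in both treatments. The lists differ by 72 transcripts in the clinical fetuses and 35 in the oral fetuses, and with 4 fetuses a treatment this difference has no test of its own.

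The member with the highest count, ENSMMUT00000004586.3, was higher in the liver in every fetus, by 3.06-fold to 5.00-fold. Its lung level was 2315, 2029, 2011 and 2107 CPM in the clinical fetuses and 1945, 1444, 2222 and 2042 CPM in the oral fetuses. Its liver level was 7071, 8529, 8131 and 9402 CPM and 6471, 7216, 7438 and 9069 CPM, respectively. The treatments overlapped in both tissues, with means of 2115 ± 139 and 1913 ± 333 CPM in the lung (SD, n = 4) and exact permutation p-values of 0.371 in the lung and 0.343 in the liver. The hippocampus still held 89.2, 128, 125 and 59.8 CPM in the clinical fetuses and 104, 91.6, 109 and 157 CPM in the oral fetuses, the highest hippocampus mean of any member. ENSMMUT00000041760.2, the fourth by rank, was also higher in the liver in every fetus, by 2.32-fold to 5.10-fold. Its lung level was 1014, 968, 889 and 1051 CPM and 1135, 1286, 936 and 928 CPM, and its liver level 4762, 3920.5, 4537 and 3694 CPM and 3539.8, 4451, 2169 and 3000.4 CPM.

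The other 5 of the first 7 members by rank differed from these 2 in how they varied. ENSMMUT00000033371.3, ENSMMUT00000058040.1, ENSMMUT00000000859.3, ENSMMUT00000033373.3 and ENSMMUT00000033372.3, together with ENSMMUT00000011787.3 at rank 172, varied together over the 24 libraries. Deviations of each member from the mean of its tissue were taken over the 24 libraries on the log2(CPM + 0.5) scale. Among the 19900 pairs of members, 15 had a Pearson correlation of at least 0.85 between these deviations. Treatment means were not removed, so the treatment differences of a group are not separate from how it was found. These pairs formed 3 groups. The largest held these 6 transcripts, with correlations of 0.738 to 0.991 (median 0.884), the second ENSMMUT00000009326.3 and ENSMMUT00000063572.1, and the last the identical pair. The 24 points share 8 fetuses, and the correlations are a description. 3 of the 6 identifiers are consecutive numbers, and whether their counts share reads was not tested.

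ENSMMUT00000033371.3 shows the pattern of this group. In the lung its level was 1194, 873, 1608 and 1889.6 CPM in the clinical fetuses and 1240.0, 1609, 1160.4 and 1564 CPM in the oral fetuses. In the liver it was 1028, 1734, 1282 and 1971 CPM and 8662, 3266, 10387 and 1881 CPM, and in the hippocampus 63.2, 55.3, 50.3 and 25.9 CPM and 84.4, 172, 55.3 and 44.0 CPM. The liver of oral 1 and of oral 3 stood far above the other 6 livers, oral 2 was between, and oral 4 lay within the range of the clinical livers. The lung levels of both treatments overlapped, and no lung stood apart. The liver level was therefore 0.862, 1.99, 0.797 and 1.04 times the lung level in the clinical fetuses, and 6.99, 2.03, 8.95 and 1.20 times in the oral fetuses. Each of the 6 transcripts was more than 4-fold higher in the liver than in the lung in oral 1 and oral 3 and in no other fetus. The place of oral 4 differed within the group. Its liver level was also within the clinical range for ENSMMUT00000000859.3 and ENSMMUT00000033372.3. For ENSMMUT00000058040.1 and ENSMMUT00000033373.3 it was above every clinical liver, at 1510 and 623 CPM beside clinical maxima of 1252 and 501 CPM.

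**Figure D3:**
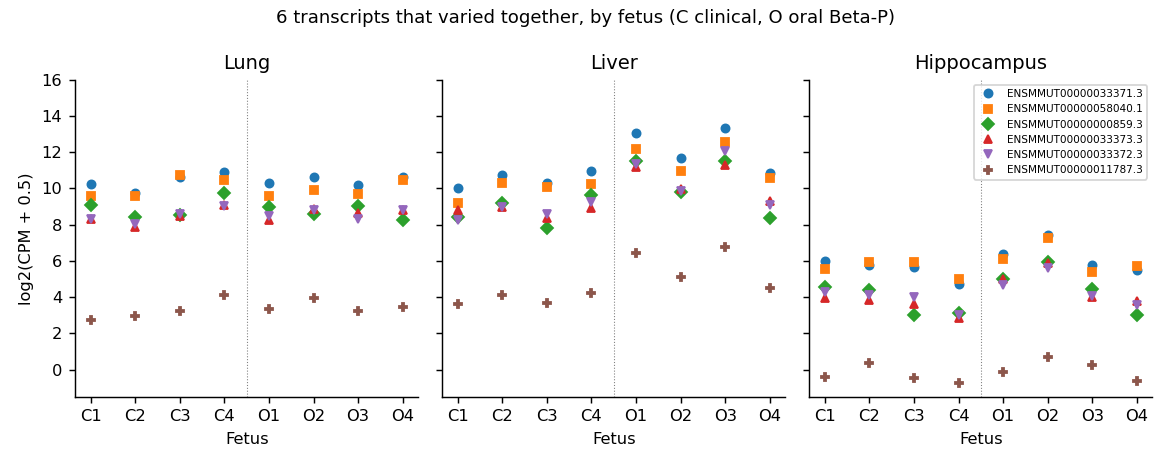
Level on the log2(CPM + 0.5) scale of the 6 transcripts that varied together, 1 marker shape per transcript, in the 4 clinical (C) and 4 oral Beta-P (O) fetuses, with 1 panel per tissue. The liver values of O1 and O3 stand above those of every other fetus, and the lung values show no such step.

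Summed over the 6 transcripts, the liver level was 2698, 4597, 3336 and 5121 CPM in the clinical fetuses and 21231, 8155, 26389.8 and 4907 CPM in the oral fetuses. The lung sum was 3138, 2496, 4405 and 5227 CPM and 3174, 3891, 3238 and 4207 CPM. The hippocampus sum was 167, 170.0, 147 and 80.5 CPM and 241, 492, 151 and 128 CPM, where oral 2 and not oral 1 or oral 3 was highest. The order of the fetuses thus differed between tissues. In the liver these 6 made up 56.3% of the counts of the 200 members in oral 3, 50.6% in oral 1 and 10.3% in clinical 1. The library of oral 3 was the only liver library of its sequencing run, and oral 1 was sequenced with the other 6. Oral 3 was also the youngest fetus, at 127 days, and oral 1 was 132 days old. Whether run or age had a part in the levels of either fetus was not tested.

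In edgeR's quasi-likelihood test the 6 transcripts had liver log2 fold changes of 1.75 to 2.14 for oral Beta-P over the clinical treatment. The Benjamini-Hochberg adjusted p-values over all liver transcripts were 0.581 to 0.659, and none was called. DESeq2 called 5 of the 6, with adjusted p-values of 0.00134 to 0.254 over the 6. The size of the fold changes rested on oral 1 and oral 3. Without both libraries, a check added after seeing the data, the log2 fold changes were 0.28 to 0.91, with edgeR adjusted p-values of 0.905 to 1.0. DESeq2 still called 1 of the 6 without them, ENSMMUT00000033373.3, with a log2 fold change of 0.88 and an adjusted p-value of 0.0674. With sequencing run as a covariate the edgeR log2 fold changes of the 6 were 1.40 to 1.69, and with gestational age 1.55 to 1.81. Oral 3 was alone in its run, so the run covariate in effect leaves it out, and without oral 3 they were 1.41 to 1.69. In the lung the log2 fold changes of the same 6 transcripts were -0.31 to 0.17. In the hippocampus they were 0.64 to 1.32 with edgeR adjusted p-values of 1.0.

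The counts held by all 200 members followed this group in the liver. The members took 1.73% ± 0.133 of lung counts in the clinical fetuses and 1.60% ± 0.0932 in the oral fetuses (SD, n = 4). In the liver they took 2.77% ± 0.145 and 3.68% ± 0.916, with 4.20%, 3.12%, 4.69% and 2.72% in oral 1 to 4. In the hippocampus they took 0.0581% ± 0.00896 and 0.0735% ± 0.0128. The 7 members with the highest rank held 34.5% to 44.0% of the members' lung counts and 55.3% to 76.6% of their liver counts, so these shares describe few transcripts.

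**Figure D4:**
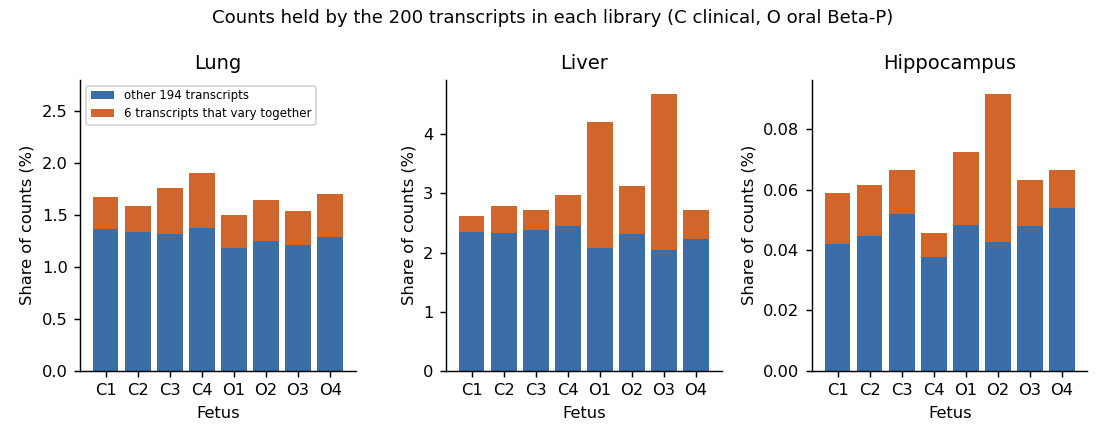
Share of all counts (%) held by the 200 transcripts in each library, with 1 panel per tissue and its own vertical axis from 0, split into the 6 transcripts that varied together and the other 194. The 6 hold the larger part in the livers of O1 and O3, and the other 194 are lower in every oral lung than in any clinical lung.

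With the 6 transcripts set aside, the sum of the other 194 lay lower with oral Beta-P in lung and liver. In the lung it was 13179 to 13774 CPM in the clinical fetuses (13486 ± 256, SD, n = 4) and 11847 to 12823 CPM in the oral fetuses (12326 ± 433). In the liver it was 23295 to 24552 CPM (23811 ± 544) and 20486 to 23065 CPM (21654 ± 1231). The treatments did not overlap in either tissue, and in the hippocampus they did. Without ENSMMUT00000004586.3 and ENSMMUT00000041760.2 as well, the lung sums of the remaining 192 were 10265 to 10616 and 8767 to 9853 CPM and still did not overlap. The liver sums were 10845 to 11713 and 10226 to 11398 CPM and overlapped. These sums were formed after the values were seen and were not tested. In the liver, the CPM of the other members is also lowered where the 6 take a larger part of the counts. The 6 held 21231 CPM in oral 1 and 26389.8 CPM in oral 3, beside a clinical mean of 3938 CPM. All 200 members together took 4.20% and 4.69% of the counts of these livers, so this lowering is below 4.69% in both. The sum of the other 194 was 20769 and 20486 CPM there, beside the clinical mean of 23811 CPM. How much of that difference the 6 account for was not tested.

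The members were chosen on the mean over both treatments, not on the difference between them. The choice was not fully independent of that difference, since 188 members met the limits on the clinical means, 181 on the oral means and 31 not on both. In the lung all 200 members passed the filter on low counts, and edgeR's quasi-likelihood test called none. The background was 0% of the 27108 transcripts tested called higher and 0.00369% called lower. The smallest Benjamini-Hochberg adjusted p-value of a member was 0.298. At an unadjusted p-value below 0.05 in edgeR, 4 members were higher with oral Beta-P, where 4.19% of all transcripts were, and 20 were lower, where 4.95% of all transcripts were. The 20 are 10% of the members and the 4 are 2%. The treatments did not overlap for 2 members that were higher, with a background of 3.36%, and for 11 that were lower, with a background of 2.94%. Both directions together came to 6.5% of members and 6.31% of all transcripts.

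Most lung differences were small and lay on the same side. The median log2 fold change of the members was -0.13, with 143 of 200 below 0 (71.5%), beside a median of -0.00 and 50.8% below 0 over all transcripts tested. Only 3 members were higher by 1.5-fold or more, with a background of 5.12%, and 15 (7.5%) were lower by as much, with a background of 7.55%. Over 16 settings of the fit the members' median stayed between -0.16 and -0.10, and more members were lower than higher at an unadjusted p-value below 0.05 in all 16. The number lower was 31 without oral 2 and 12 with gestational age as a covariate. Within the run of 6 lung libraries it was again 20, with 4 higher.

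The members that led in the lung were named by the smallest p-value among those whose treatments did not overlap, 2 in each direction. ENSMMUT00000012750.3 was at 96.6, 139, 108 and 108 CPM in the clinical lungs and at 54.4, 63.0, 65.1 and 80.7 CPM in the oral lungs. Its means were 113 ± 18.3 and 65.8 ± 11.0 CPM (SD, n = 4), and its log2 fold change was -0.78 ± 0.15 (SE), with an edgeR adjusted p-value of 0.298. ENSMMUT00000024636.3 was at 15.3, 14.1, 19.0 and 14.7 CPM and 11.0, 10.6, 12.3 and 10.5 CPM, with a log2 fold change of -0.51 ± 0.12 (SE). It was also 1 of the 3 members that met the limits in only 2 fetuses. In the other direction, ENSMMUT00000000488.3 was at 58.7, 55.8, 43.8 and 54.5 CPM in the clinical lungs and 110.4, 60.8, 91.0 and 96.5 CPM in the oral lungs, with oral 2 close to clinical 1. Its means were 53.2 ± 6.51 and 89.7 ± 20.9 CPM, and its log2 fold change was 0.75 ± 0.18, with an edgeR adjusted p-value of 0.360. ENSMMUT00000067844.1 was at 27.7, 28.7, 28.0 and 33.3 CPM and 36.8, 43.2, 34.7 and 35.7 CPM, a log2 fold change of 0.35 ± 0.09. Since a lack of overlap chose these members, the smallest exact permutation p-value that 4 against 4 allows, 0.0286, is given by construction.

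DESeq2 called 5 lung members, 1 higher, with a background of 0.293%, and 4 lower, with a background of 0.571%. The 1 higher was ENSMMUT00000000488.3, and ENSMMUT00000012750.3 was among the lower, with DESeq2 adjusted p-values of 0.0160 and 0.000551. The other 3, ENSMMUT00000027208.3, ENSMMUT00000000321.3 and ENSMMUT00000001158.3, are named because of this call. ENSMMUT00000000321.3 was at 29.1, 31.1, 51.1 and 26.4 CPM in the clinical lungs and 15.0, 23.5, 21.7 and 17.7 CPM in the oral lungs, and clinical 3 stood apart. ENSMMUT00000027208.3 was at 34.6, 47.3, 31.3 and 43.8 CPM and 23.0, 27.5, 19.5 and 28.8 CPM, and the treatments did not overlap.

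**Figure D5:**
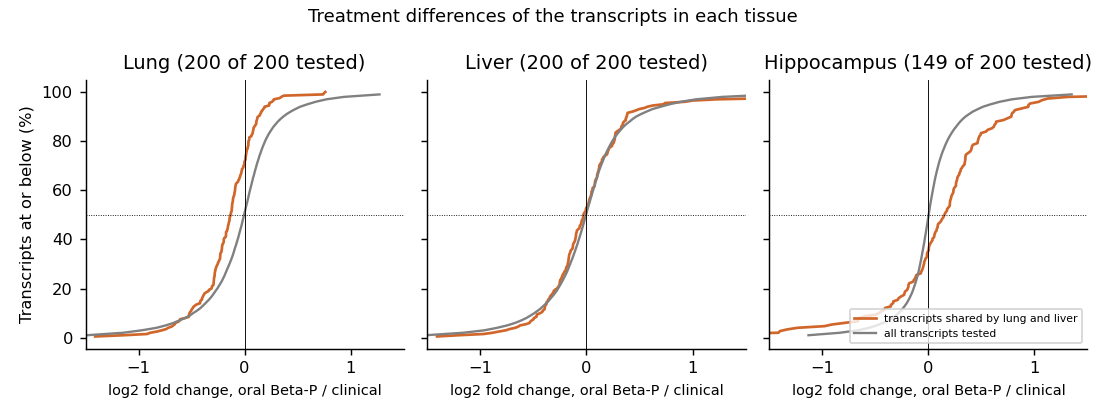
Share of transcripts (%) at or below each log2 fold change of oral Beta-P over the clinical treatment, for the members tested and for all transcripts tested (percentiles 1 to 99), with 1 panel per tissue and values beyond 1.5 in size not drawn. In the lung the members' line crosses 50% at -0.13, in the liver at -0.03 and in the hippocampus at 0.15, while the line of all transcripts crosses at 0 within 0.01 in each tissue.

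In the liver all 200 members were tested and edgeR again called none, with a background of 0% in both directions. The smallest Benjamini-Hochberg adjusted p-value of a member was 0.581. At an unadjusted p-value below 0.05, 14 members (7%) were higher, where 3.5% of the 25064 transcripts tested were, and 19 (9.5%) were lower, where 3.58% were. The median SE of the log2 fold changes was 0.20 over the members and 0.25 over all transcripts. These shares were therefore not compared at like precision. The treatments did not overlap for 7 members that were higher, with a background of 2.28%, and for 6 that were lower, with a background of 1.9%. The median log2 fold change was -0.03, with 106 members below 0 (53%, and 50.7% of all transcripts). In the lung 71.5% lay below 0, and the shares of both tissues were not tested against each other.

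The liver counts moved with single libraries. Of the 14 higher members, 6 were the group described above. Without oral 1 the numbers were 13 higher and 11 lower, without oral 3 they were 12 and 11, and without both 7 and 8. With gestational age as a covariate they were 8 and 10, and with sequencing run 12 and 11. The run covariate in effect leaves out oral 3, which was alone in its run, and is no separate check. DESeq2 called 5 higher members, with a background of 0.373%, all in the group of 6, and 1 lower, with a background of 0.405%.

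The 1 lower was ENSMMUT00000029692.3, which was at 33.8, 34.5, 30.9 and 33.7 CPM in the clinical livers and 24.1, 24.5, 17.6 and 20.9 CPM in the oral livers. The clinical values were tight, and every oral value was below them. Its means were 33.2 ± 1.61 and 21.8 ± 3.22 CPM (SD, n = 4), with a log2 fold change of -0.63 ± 0.14 (SE) and an edgeR adjusted p-value of 0.581. With gestational age as a covariate the log2 fold change was -0.37. In the lung of the same fetuses it was at 14.1, 17.3, 18.2 and 17.0 CPM and 7.62, 9.29, 9.41 and 15.0 CPM. ENSMMUT00000046815.2 was at 11.3, 15.1, 13.3 and 13.8 CPM in the clinical livers and 8.97, 10.1, 9.19 and 4.76 CPM in the oral livers, a log2 fold change of -0.73 ± 0.21.

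Of the higher members, ENSMMUT00000027441.2 was not in the group of 6. It was at 47.0, 39.4, 34.3 and 44.3 CPM in the clinical livers and 60.4, 62.6, 62.0 and 60.2 CPM in the oral livers, and the oral values lay within 3 CPM of each other. Its means were 41.3 ± 5.57 and 61.3 ± 1.16 CPM, with a log2 fold change of 0.55 ± 0.12 and an edgeR adjusted p-value of 0.581. In the lung it was at 41.3, 33.3, 42.0 and 32.0 CPM and 33.6, 33.8, 30.9 and 23.5 CPM, and the treatments overlapped. ENSMMUT00000033373.3 was the other one named by the same rule and belongs to the group. It was at 441, 501, 331 and 490.3 CPM and 2351, 1018, 2549.8 and 623 CPM, and oral 4 was nearest to the clinical livers.

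4 members had an unadjusted edgeR p-value below 0.05 in both lung and liver, and all 4 were lower with oral Beta-P in both. Among the 23345 transcripts tested in each tissue, 0.514% met this criterion in the lower direction and 1.26% in any, beside 2% of the members. The members were more often below 0.05 in each tissue alone, so their share in both is not read as a result about them. The 4 members were ENSMMUT00000029166.3, ENSMMUT00000027208.3, ENSMMUT00000039126.2 and ENSMMUT00000029692.3, named after their values were seen. ENSMMUT00000029166.3 was at 44.1, 54.9, 43.9 and 52.1 CPM in the clinical lungs and 35.1, 38.3, 43.4 and 43.2 CPM in the oral lungs, and at 99.2, 75.9, 86.0 and 73.8 CPM and 74.2, 75.1, 68.0 and 47.7 CPM in the livers. ENSMMUT00000039126.2 was at 22.1, 25.9, 22.4 and 26.2 CPM and 15.0, 18.7, 21.9 and 18.0 CPM in the lungs and 14.3, 17.8, 19.7 and 12.5 CPM and 12.2, 11.4, 14.0 and 9.62 CPM in the livers. Both tissues came from the same 8 fetuses, so the direction in 1 tissue is no independent repeat of the other.

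Whether the treatment difference itself differed between lung and liver was tested as an interaction of tissue and treatment. The fit treated the libraries as independent, although lung and liver came from the same fetuses, and a fit with the fetus as a block is given at the end. edgeR called none of the 200 members, with a background of 0.0168% called higher in liver than in lung and 0.0201% called lower. At an unadjusted p-value below 0.05, 21 members (10.5%) had the higher fold change in the liver, where 3.99% of all 29830 transcripts did, and 8 (4%) had the lower, where 3.21% did. The 21 included all of the group of 6. They became 14 without clinical 3, 15 without oral 3, 16 without oral 1 and 24 without oral 2. The 8 became 4 without clinical 2 or without oral 3, and 5 without clinical 3, clinical 4 or oral 1. The median interaction was 0.13 on the log2 scale beside 0.01 over all transcripts. The median SE of the interactions was 0.30 over the members and 0.41 over all transcripts, so the shares were not compared at like precision. The smallest Benjamini-Hochberg adjusted p-value in edgeR was 0.268, for ENSMMUT00000027441.2, with an interaction of 0.85 on the log2 scale. The group of 6 had interactions of 1.70 to 2.11, with edgeR adjusted p-values of 0.469 to 0.592. DESeq2 called 4 members, all higher in the liver, with a background of 0.384%. These were ENSMMUT00000027441.2 and 3 of the group of 6, ENSMMUT00000033371.3, ENSMMUT00000058040.1 and ENSMMUT00000033373.3. With the fetus as a block, edgeR called none, the smallest adjusted p-value of a member was 0.731, and the group of 6 had interactions of 1.47 to 1.80. DESeq2 was not run with the block.

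In the hippocampus 149 members had enough counts to be tested and 51 did not. The limits kept the members low there, so these 149 are the less sparse part of the list and not all of it. edgeR called none, with a background of 0% in both directions, and DESeq2 called none, with a background of 0.0951% higher and 0.0701% lower. At an unadjusted edgeR p-value below 0.05, 6 members (4.03%) were higher with oral Beta-P, where 1.69% of the 29041 transcripts were, and none was lower, where 1.41% were. The number higher was 2 without oral 1, 3 without clinical 4 and 10 with sequencing run as a covariate. The median log2 fold change was 0.15, and 97 of the 149 lay above 0. The median SE of these fold changes was 0.41, beside 0.18 over all transcripts. The treatments did not overlap for 1 member, or 0.671%, which was higher, beside 1.12% of all transcripts higher, 0.988% lower and 2.11% in both directions. Run and treatment were nearly the same split in this tissue, and their parts in these values cannot be told apart. ENSMMUT00000033373.3, 1 of the group of 6, was among the 6 higher, at 14.9, 14.1, 11.9 and 6.83 CPM in the clinical and 31.8, 57.7, 15.5 and 13.2 CPM in the oral fetuses.

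The members' median spread between fetuses of 1 treatment was higher than that of transcripts at similar levels. The SD of log2(CPM + 0.5) within treatments had a median of 0.295 over the members in the lung, from 0.0531 to 2.0. The 14342 transcripts in the same range of lung levels had a median of 0.169. In the liver the members' median was 0.305, from 0.0771 to 1.63, and that of 10449 transcripts in the same range was 0.223. An SD above 1 was found for 7 members in the lung (3.5%, and 1.44% of all in the range) and for 5 in the liver (2.5%, and 1.83%). These medians are a description, and the levels within the range were alike, with a median of 29.9 CPM in the lung and 22.2 CPM in the liver over the transcripts compared.

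Deviations in the lung and liver of the same fetus went together in some members and apart in others. The correlation between both tissues over the 8 fetuses, after the mean of each treatment was removed, had a median of 0.0792 over the members and 0.197 over the 11942 transcripts at 5 CPM in both. Over the members it ran from -0.77 to 0.89, with quartiles of -0.25 and 0.39. It was above 0.7 for 19 members (9.5%, and 11.2% of all), a smaller share than over all transcripts. It was below -0.7 for 4, and the share of all transcripts below -0.7 was not computed. Neither count is read as a result about the members. 2 of the 19 are named after their values were seen. ENSMMUT00000057806.1 was at 35.5, 165, 93.7 and 438 CPM in the clinical lungs and 95.5, 18.1, 65.7 and 151 CPM in the oral lungs. Its liver level was 28.2, 264, 106 and 413 CPM and 370.5, 41.7, 457 and 147 CPM, so that clinical 4 was far above clinical 1 in both tissues, and oral 2 was lowest of the oral fetuses in both. The correlation was 0.833 over 8 points. ENSMMUT00000033466.3, with a correlation of 0.868, was highest in oral 4 in all 3 tissues, with a lung level of 162 CPM, a liver level of 77.1 CPM and a hippocampus level of 5.15 CPM.

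A pair of other members are also named after their values were seen. ENSMMUT00000013437.3 was at 21.7, 12.1, 23.7 and 0 CPM in the clinical lungs, so that clinical 4 had no count, which allows up to 0.125 CPM. Its oral lungs were at 20.9, 10.7, 21.4 and 4.56 CPM, and its livers at 30.4, 13.0, 13.8 and 22.6 CPM and 32.4, 41.4, 28.1 and 58.8 CPM. Clinical 4 was thus lowest in the lung and not in the liver, and the livers also differed from each other. It was the only member with a lung library at 3 counts or fewer, and no member had such a liver library. ENSMMUT00000023250.3 split the fetuses in the hippocampus, at 8.22, 0, 0.0444 and 0.0305 CPM in the clinical and 0.0609, 0, 6.19 and 3.23 CPM in the oral fetuses. Clinical 1, oral 3 and oral 4 held it, and the other 5 were at or near 0. In the lung of these fetuses it was at 98.6, 68.9, 114 and 99.3 CPM and 78.3, 89.5, 79.0 and 91.8 CPM. Its livers were at 24.7, 28.2, 34.9 and 18.9 CPM and 26.3, 23.0, 22.5 and 27.5 CPM, and neither tissue showed the split.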

How the data were processed

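RNA of 3 tissues of each of 8 Rhesus macaque fetuses was sequenced as paired-end reads (24 libraries). Tissue, treatment and animal were taken from the sample labels. The authors aligned reads with STAR to build MMUL1.0. The submitters' processing notes also list featureCounts and DESeq2, without versions. The authors deposited 1 table per tissue with unnormalized counts per transcript. Counts are whole numbers in the lung and hippocampus. The deposited liver values are estimated counts, of which 55.4% are not whole, and why is not given in the sources used here. They were rounded for testing. Every column was used.

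CPM was computed from each column's sum. The members, lists and limits were chosen with earlier results of these data known. Treatments were compared with R 4.3.3 by the quasi-likelihood test of edgeR 4.0.16 (on limma 3.58.1) over all transcripts that passed filterByExpr, with TMM normalization and Benjamini-Hochberg adjustment. A transcript was called where the adjusted p-value was below 0.1, the unadjusted p-value below 0.05 and the change at least 1.5-fold. The interaction of tissue and treatment, fitted over lung and liver together, needed the same limits on p-values and no fold. Standard errors were derived from the F statistic. The scripts were tested on simulated data. Replicates were separate fetuses. Single transcripts were compared by a two-sided exact permutation test over the 70 assignments, which cannot go below p = 0.0286. Each library held 21088272 counts or more. Counting error and the spread between fetuses were not separated, and limits from a count of 0 (3 counts) cover counting error only.

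Lung and liver libraries are paired because they come from the same fetus. Over the 200 members, the correlation of deviations was 0.132 on average for the same fetus and -0.0192 for different fetuses, and 5 of 8 same-fetus correlations were above 0.1. The transcripts named were the 6 with the highest smaller mean, 2 per tissue and direction in lung and liver with the smallest p-value among those below 0.05 whose treatments did not overlap, those nearest to each limit, and any called. Others were added with their values in view. The identifiers matched neither of the gene tables used here, so gene and cell type lists were not used. Alternatives were DESeq2 1.42.0, other filters, normalizations and limits, gestational age and sequencing run as covariates, the fetus as a block, and each library left out in turn.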

Additional observations from a re-analysis of the deposited data

How the results depend on the processing

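No member was called by edgeR in lung, liver, hippocampus or the interaction under any alternative, including those without 1 library (0 to 0 called in each) and the replicate block by fetus (0 called in the interaction). DESeq2 called more: 5 members in the lung (1 higher, 4 lower), 6 in the liver (5 higher, 1 lower) and 4 in the interaction, and 2 in the liver without oral 1 and oral 3, a setting chosen after seeing the data (ENSMMUT00000033373.3 and, outside the group of 6, ENSMMUT00000044041.2). The cause was not tested. The members named for the smallest p-values without overlap, 2 per tissue and direction in lung and liver, had 128 values under the alternatives. Of these, 123 kept their direction and side of the threshold, 5 were newly called and 0 reversed. A lack of overlap chose these members and the main fit called none, so much of this agreement was fixed in advance. The other named members are not covered by it. The limits set the list's size. 450 transcripts met them at 5 times the hippocampus mean, 146 at 20 times and 158 within 2-fold, against 240. Few counts in the hippocampus left 51 members untested there.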
